A study of Bos taurus with 6 samples.

Results

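The members described here were bta-miR-183, bta-miR-96 and bta-miR-182, the mature miRNAs of the miR-183 cluster. They were taken by name and made up 3 of the 1028 bovine miRNAs listed in each library. Small RNA had been sequenced from bovine granulosa cells, the somatic cells that surround the oocyte and make estradiol, aspirated from small antral follicles of 3 to 6 mm in ovaries collected at a slaughterhouse. All cells were first cultured for 24 h at 37 °C in medium with exosome-depleted serum. The control group then stayed at 37 °C for another 24 h and the heat-stressed (HS) group was moved to 42 °C for the same time. There were 3 libraries per temperature, which carry the numbers 1 to 3 and are described as biological replicates. The breed and age of the cows, and whether libraries with the same number came from 1 pool of cells split between the temperatures, are not given in the sources used here. P-values therefore measure the spread between these libraries.

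A miRNA is a short RNA that guides a silencing complex to messenger RNAs that pair with its seed, the bases near its 5′ end. The miR-183 cluster is a polycistron: its members are cut from a shared primary transcript, so that they are usually present together. It is best known from sensory organs such as the retina and inner ear, where it is abundant, and it is also studied in cancers. All of its members can repress FOXO1, a transcription factor of the forkhead family that slows the cell cycle and favours atresia in follicles, and in cultured bovine granulosa cells the cluster has been described to promote proliferation through FOXO1. In RefSeq gene models for ARS-UCD2.0, a cattle genome assembly, all 3 members matched a gene on chromosome 4. MIR182, MIR96 and MIR183 lie there in this order with no other annotated gene between them. NRF1 and SMKR1 are the neighbours on the side of MIR182, and LOC132345191 and UBE2H those on the side of MIR183. The reads had been mapped to another assembly, so no positions are given.

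The libraries held 2076239 to 4590971 reads, and control replicate 1 was the shallowest. Levels are given as normalised CPM, the reads of a miRNA scaled to a common library size. A read stands for a mature miRNA whatever its length, so that no scaling by length applies, but miRNAs differ in how well adapters ligate to them and levels of different miRNAs are only a rough guide to their molar order. bta-miR-361, the reference miRNA of the study's droplet PCR, stood at 3670 ± 335 normalised CPM at 37 °C and 3217 ± 190 at 42 °C (SD, n = 3 each).

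The cluster was expressed at moderate to low levels in every library. bta-miR-182 was the most abundant member, with 132.8, 248.1 and 837 normalised CPM for the control libraries numbered 1, 2 and 3, and 119.5, 175.9 and 663.2 for the HS libraries in the same order, which is kept throughout. These values came from 272 to 3116 reads. bta-miR-183 followed with 99.6, 188.8 and 639.1 normalised CPM at 37 °C and 87.3, 132.7 and 473.2 at 42 °C, from 204 to 2294 reads. bta-miR-96 was the lowest member, with 11.7, 28.7 and 89.7 normalised CPM at 37 °C and 14.3, 16.6 and 94.1 at 42 °C. Its reads numbered 24, 132 and 322 in the control libraries and 43, 61 and 442 in the HS libraries. In all 6 libraries bta-miR-182 stood above bta-miR-183, and bta-miR-183 above bta-miR-96. For every member the library numbered 3 was the highest of its group and the library numbered 1 the lowest, in control and in HS cells alike. The ranges of the groups overlapped for all members.

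**Figure D1:**
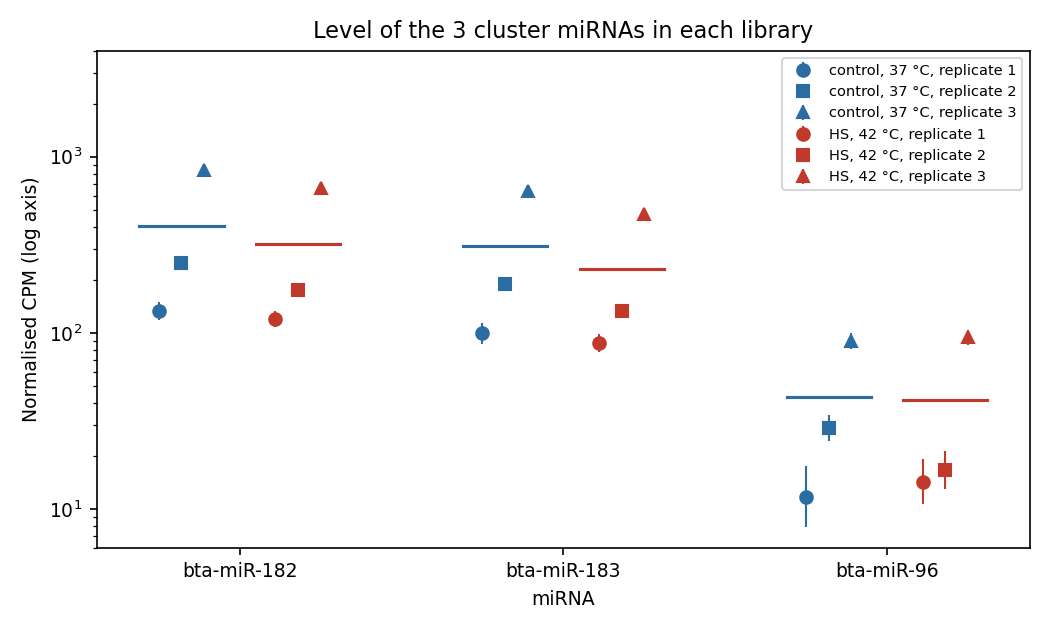
Normalised CPM (log axis) of bta-miR-182, bta-miR-183 and bta-miR-96 in each library, with control cells in blue and HS cells in red. Symbols mark the replicate number, vertical bars the 95% Wilson interval of the read count, which covers counting error only, and horizontal lines the group means. The triangles of replicate 3 lie above the other libraries in both groups, at 837 and 663.2 normalised CPM for bta-miR-182.

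Together the members took 0.0213% of all reads in HS replicate 1, the lowest value, and 0.157% in control replicate 3, the highest. Their summed level was 244.1, 465.6 and 1566 normalised CPM at 37 °C and 221, 325.2 and 1230 at 42 °C. The place of a member among all miRNAs moved accordingly. bta-miR-182 ranked 152 in control replicate 1 and 85 in control replicate 3, and 155 and 89 in the HS libraries with these numbers. bta-miR-96 ranked 268 and 163 in control and 258 and 164 in HS replicates 1 and 3. By the mean over the 6 libraries, bta-miR-182 was at place 107 between bta-miR-331-3p and bta-miR-142-5p, bta-miR-183 at place 122 between bta-miR-362-5p and bta-miR-223, and bta-miR-96 at place 199 between bta-miR-193b and bta-miR-2284z. None of these neighbours was on the same side of its member in all libraries. Each was above the member in 4 of the 6, so that these places do not separate a member from its neighbours beyond their spread.

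Whether heat stress altered the cluster was examined by comparing HS with control cells in limma across the 365 miRNAs that passed a filter on low counts, which all 3 members did. None of the members passed the test. bta-miR-183 averaged 309.2 ± 289.2 normalised CPM at 37 °C and 231 ± 210.9 at 42 °C (SD, n = 3 each). Its log2 fold change was -0.38 ± 0.823 (SE), with a 95% interval from -2.33 to 1.58 (limma adjusted p = 0.947). bta-miR-182 averaged 406 ± 377.7 and 319.5 ± 299 normalised CPM, a log2 fold change of -0.33 ± 0.828 with an interval from -2.29 to 1.64 (limma adjusted p = 0.954). bta-miR-96 averaged 43.4 ± 41 and 41.6 ± 45.4 normalised CPM, a log2 fold change of -0.14 ± 0.91 with an interval from -2.30 to 2.02 (limma adjusted p = 0.969). The differences were smaller than the spread between replicates, and the directions of all members turned when control replicate 3 or HS replicate 1 was left out, as did that of bta-miR-96 without HS replicate 2 and, at 0.038, with all libraries scaled to bta-miR-361. Without control replicate 3 the log2 fold changes were 0.36, 0.41 and 0.60 for bta-miR-183, bta-miR-182 and bta-miR-96, without HS replicate 1 they were 0.13, 0.18 and 0.33, and without HS replicate 2 that of bta-miR-96 was 0.23. Such a fit leaves a replicate number in 1 group only, and the numbers differed strongly, as described further on. In all 14 alternatives with every library, the log2 fold changes of bta-miR-183 and bta-miR-182 stayed negative, from -0.56 to -0.19 and from -0.51 to -0.14. The other filters, the fit without the trend and the limma replicate block are among these and cannot move the estimate.

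Of all tested miRNAs, 26 (7.12%) reached an adjusted p no higher than 0.2, and 11 (3.01%) also moved by 1 or more on the log2 scale. The members contributed 0 to either number. Without a term for replicate number, none had an unadjusted p under 0.05 in limma, in the edgeR quasi-likelihood test or in DESeq2. The groups were fully separate, with no overlap, for 73 of the 365, or 20%, and for 0 of the 3 members. The intervals of this fit, which has no term for replicate number, were wide and for bta-miR-183 covered HS levels from 0.199 to 2.98 times the control level. The SE of the members ranked 2 (bta-miR-96), 5 (bta-miR-182) and 6 (bta-miR-183) among the 365 tested miRNAs, whose median SE was 0.226. The sum of the cluster differed by -0.34 on the log2 scale, within the SD of 1.36 between control replicates. It was 0.40 without control replicate 3, 0.17 without HS replicate 1 and -1.07 without HS replicate 3. Fewer cells that express the cluster and less of it per cell cannot be told apart in such bulk samples.

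**Figure D2:**
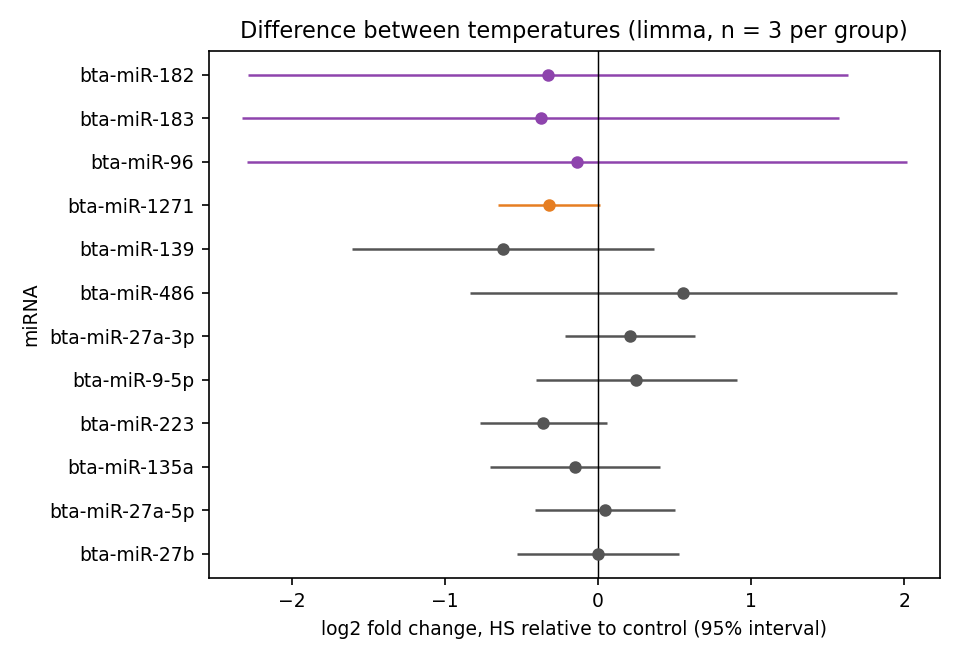
Log2 fold change of HS relative to control cells with its 95% interval (limma, n = 3 per group) for the cluster members (purple), bta-miR-1271 (orange) and the other tested miRNAs known to act on FOXO1 (grey). Every interval includes 0, and those of the cluster members are the widest, reaching from -2.33 to 1.58 for bta-miR-183.

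The larger difference lay between libraries of the same group. In control cells replicate 3 had 6.42 times the bta-miR-183 of replicate 1, and in HS cells 5.42 times. For bta-miR-182 these ratios were 6.30 and 5.55, and for bta-miR-96 7.66 and 6.59. Replicate 2 stood closer to replicate 1, at 1.90 and 1.52 times its level for bta-miR-183 in control and HS cells, 1.87 and 1.47 times for bta-miR-182 and 2.45 and 1.16 times for bta-miR-96. In the study's summary of reads, replicate 1 also had the smallest share of reads mapped to miRNAs in either group. The largest share was that of replicate 2 in control cells and of replicate 3 in HS cells. The part of this share in the levels of the cluster was not tested. The SD of log2 levels within a group was 1.26 to 1.47 for the 3 members. The SD from counting error alone, averaged over the 3 libraries of a group, was 0.0522 to 0.167.

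The replicate number was tested as a factor beside temperature in limma, a test added after the values had been seen. It held 96.6% of the variation of bta-miR-183 over the 6 libraries, 97.3% of that of bta-miR-182 and 96.2% of that of bta-miR-96, while temperature held 2.99%, 2.25% and 0.356%. The medians over all tested miRNAs were 38.5% for the replicate number and 16.5% for temperature. At an adjusted p under 0.05, 7 of the 365 tested miRNAs differed by replicate number, or 1.92%, and all 3 members were among them. This number was 16 with upper quartile factors and 4 with scaling to bta-miR-361, without the trend or with a pseudocount of 5. The limma adjusted p was 0.00843 for bta-miR-183 and bta-miR-182 and 0.0491 for bta-miR-96. That of bta-miR-96 passed the threshold in 5 of 9 alternatives. It was 0.0361 in the edgeR quasi-likelihood test, 0.039 with recomputed TMM factors, 0.0391 with library totals, 0.0434 with DESeq2 size factors and 5.0e-05 with upper quartile factors. It was 0.0505 and 0.052 in limma with pseudocounts of 0.5 and 5, 0.0776 without the trend and 0.133 with scaling to bta-miR-361, whereas the other members passed in all 9 alternatives. The other miRNAs that passed were bta-miR-1246, bta-miR-146b, bta-miR-122 and bta-miR-2285t.

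A level at least 4 times as high in replicate 3 as in replicate 1, on the log2(value + 1) scale and in both groups, was found for 3 of the 365 tested miRNAs, or 0.822%, and these were the 3 members. This limit was set after their values had been seen and carries no test. Just outside it was bta-miR-146b, a miRNA known from inflammatory signalling, with 415, 1099 and 1747 normalised CPM at 37 °C and 443.6, 1093 and 1766 at 42 °C. bta-miR-146b passed the limit too under 4 of the 7 other scalings and pseudocounts. The low bta-miR-2285t missed it only through the added 1, with log2 differences of 1.90 in control and 2.56 in HS cells. Its plain levels in replicates 1 and 3 were 5.37 and 22.8 normalised CPM at 37 °C and 5.97 and 40 at 42 °C, ratios above 4. As bta-miR-183, bta-miR-96 and bta-miR-182 share a primary transcript, they are not separate cases of this pattern.

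**Figure D3:**
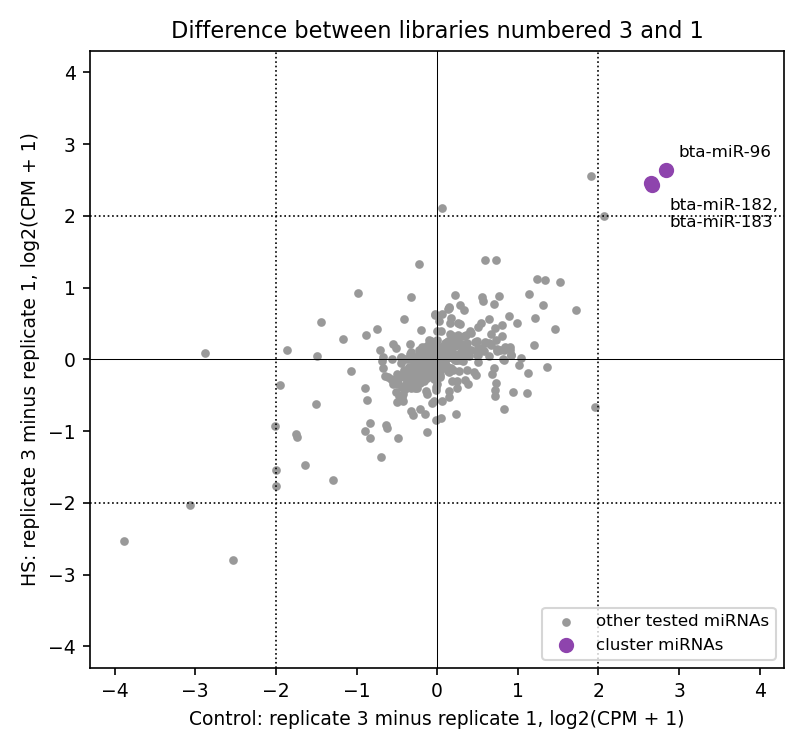
Difference between the libraries numbered 3 and 1 on the log2(normalised CPM + 1) scale, in control cells (horizontal axis) and HS cells (vertical axis), for the 365 tested miRNAs. Dotted lines mark a ratio of 4, and the cluster members (purple) are the only points beyond it at the upper right, at 2.67 and 2.43 for bta-miR-183.

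Within a replicate number the temperatures differed less than the libraries numbered 3 and 1 did, but not always less than those numbered 2 and 1. The HS level of bta-miR-183 was 0.876, 0.703 and 0.74 times the control level for numbers 1, 2 and 3. That of bta-miR-182 was 0.9, 0.709 and 0.792 times the control level. At number 1 the counting intervals overlapped, at 86.8 to 114.2 and 77.3 to 98.5 normalised CPM for bta-miR-183 in control and HS cells. Those of bta-miR-182 overlapped too, at 117.9 to 149.5 and 107.7 to 132.4. There bta-miR-361 was lower by a larger factor, at 4006 and 3178 normalised CPM, so that relative to it the direction of these members turns. How many of all tested miRNAs were lower at every number was not counted. bta-miR-96 had no common direction, with 1.22, 0.578 and 1.05 times. Its difference between the temperatures at number 2 was thus larger than that between HS replicates 2 and 1.

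bta-miR-182 and bta-miR-183 kept a nearly fixed proportion to each other while their levels differed between libraries, and the proportion of bta-miR-96 varied more. A ratio within a library does not depend on how the library was scaled. The reads of bta-miR-182 were 1.33, 1.31 and 1.31 times those of bta-miR-183 in control replicates 1, 2 and 3 and 1.37, 1.33 and 1.40 times in HS replicates. The 95% intervals of this ratio, which cover counting error only, overlapped between all libraries. The group means differed by 0.0496 on the log2 scale, with SDs of 0.0138 in control and 0.0403 in HS cells (exact two-sided permutation test, n = 3 each, p = 0.2). bta-miR-96 was at 0.118, 0.152 and 0.14 times bta-miR-183 in control replicates and at 0.163, 0.125 and 0.199 times in HS replicates. HS replicate 3 was the highest, with a counting interval of 0.18 to 0.22. This lay above the intervals of HS replicate 2 at 0.0959 to 0.163, of control replicate 3 at 0.125 to 0.158 and, narrowly, of control replicate 1, and thus apart from libraries of both groups. The ratio of bta-miR-96 to bta-miR-183 differed between the groups by 0.23 on the log2 scale (exact two-sided permutation test, p = 0.4). The ratio of bta-miR-182 to bta-miR-96 ran from 7.05 in HS replicate 3 to 11.3 in control replicate 1 and differed by -0.18 (exact two-sided permutation test, p = 0.4). For all 3 ratios the smallest p that the design allows is 0.1, and after Benjamini-Hochberg adjustment over them each p was 0.4.

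**Figure D4:**
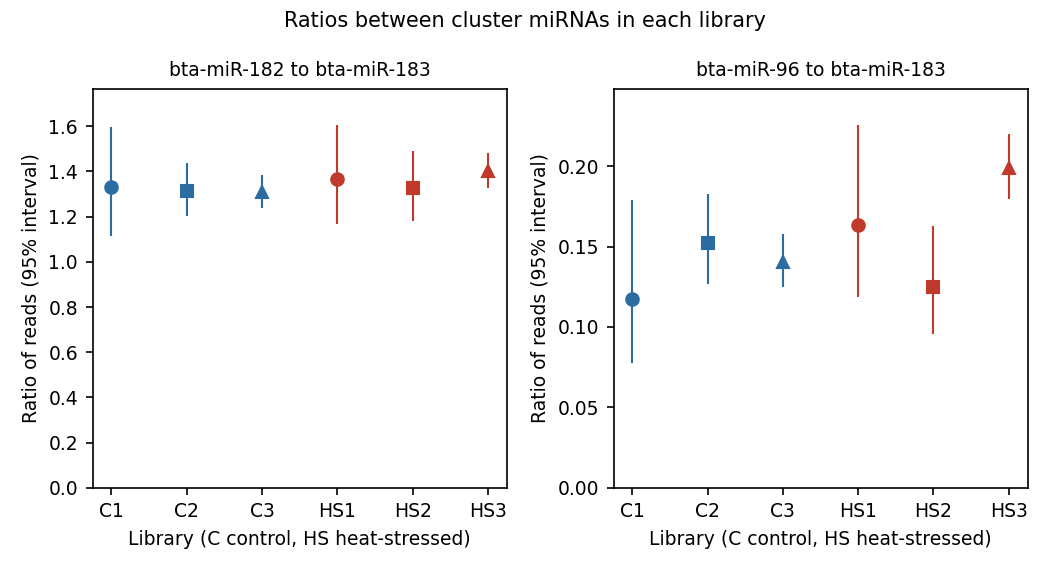
Ratio of reads of bta-miR-182 to bta-miR-183 (left) and of bta-miR-96 to bta-miR-183 (right) in control (C, blue) and HS (red) libraries, with 95% intervals from the read counts and axes that start at 0. The left ratio stays between 1.31 and 1.40, and the right one between 0.118 and 0.199.

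Over the 6 libraries the log2 ratio of bta-miR-182 to bta-miR-183 had an SD of 0.0381 on the log2(value + 1) scale, compared with SDs of 1.19 for the levels of both miRNAs. Of the 66430 pairs of tested miRNAs, 0.0105% had a ratio as even or more so, this pair included. For the ratios of bta-miR-96 to bta-miR-183 and of bta-miR-182 to bta-miR-96 these shares were 12.8% and 8.95%, and bta-miR-96 had the fewest reads. Pearson's r of log2 levels was 0.999 between bta-miR-182 and bta-miR-183, the highest of all pairs, and Spearman's rho was 1. For bta-miR-96 r was 0.983 with bta-miR-183 and 0.987 with bta-miR-182, with rho at 0.886 for both. Without the libraries numbered 3, which lie apart, r over the remaining 4 libraries was at least 0.999 for bta-miR-182 with bta-miR-183, 0.915 for bta-miR-96 with bta-miR-183 and 0.925 for bta-miR-96 with bta-miR-182. These correlations describe the 6 libraries and carry no p, since libraries with the same number may not be independent.

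Outside the cluster, the miRNAs with the most similar pattern were bta-miR-146b, bta-miR-27b, bta-miR-199b and bta-miR-455-5p, ranked by r of log2 levels over the 6 libraries. bta-miR-146b came closest to bta-miR-183 and bta-miR-182, with r of 0.896 and 0.894, and had r of 0.882 with bta-miR-96. bta-miR-27b had r of 0.892 with bta-miR-96, 0.851 with bta-miR-182 and 0.848 with bta-miR-183, but its highest library was only 1.70 times its lowest, against 7.32 times for bta-miR-183, 7.01 times for bta-miR-182 and 8.03 times for bta-miR-96. bta-miR-199b, with r of 0.849 with bta-miR-183 and 0.847 with bta-miR-182, was low at 3.42 to 11.7 normalised CPM. bta-miR-455-5p, with r of 0.871 with bta-miR-96, ran from 90.8 to 187.9 normalised CPM. None of them passed the test for heat stress (limma adjusted p from 0.839 to 0.997).

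Other miRNAs known to repress FOXO1 were set beside the cluster as a list of 8 names, which matched 10 listed miRNAs, of which 8 were tested. None of the 8 passed the test for heat stress, and their median log2 fold change was 0.02, near the median of -0.0015 over all tested miRNAs. bta-miR-139, a low miRNA with tumour suppressor roles, averaged 4.45 ± 2.25 normalised CPM at 37 °C and 2.51 ± 1.42 at 42 °C, with a difference of -0.62 on the log2 scale (limma adjusted p = 0.596). bta-miR-486 averaged 30.6 ± 19.4 and 43.1 ± 20.7 normalised CPM, with a difference of 0.56 (limma adjusted p = 0.806). bta-miR-223, best known from myeloid cells, averaged 281.4 ± 26.6 and 221 ± 40 normalised CPM, with a difference of -0.36 (limma adjusted p = 0.418). bta-miR-27b was by far the most abundant of the list, at 10577 ± 2509 normalised CPM under control conditions and 10498 ± 2267 under HS (SD, n = 3 each), and thus stood well above all cluster members. None of the 8 differed by replicate number at an adjusted p under 0.05.

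bta-miR-1271, which is known to share its seed with miR-96 but comes from another locus, measured 143.1, 140.3 and 141 normalised CPM at 37 °C and 121.1, 113.1 and 105.1 at 42 °C. It was named after the values had been seen. Its groups did not overlap, as for 20% of all tested miRNAs, but its log2 fold change of -0.32 ± 0.141 did not pass (limma adjusted p = 0.37). It had no difference between replicate numbers like that of bta-miR-96 (limma adjusted p = 0.928), and stood above bta-miR-96 in every library.

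Markers of granulosa and other cells were measured in the same libraries. bta-miR-202, a marker of the somatic cells of the gonad, was present in every library at 1346 to 2749 normalised CPM at 37 °C and 1309 to 2095 at 42 °C. It passed neither the test for heat stress (limma adjusted p = 0.814) nor that for replicate number (limma adjusted p = 0.819). The red blood cell list summed to 12.5 to 52.7 normalised CPM at 37 °C and 20.9 to 62.7 at 42 °C, and 1 of its 3 members was tested. Nearly all of this sum was bta-miR-486, a FOXO1-directed miRNA that is also abundant in red blood cells, at 50.8, 29.1 and 12 normalised CPM at 37 °C and 60.1, 49.2 and 20 at 42 °C. The libraries numbered 3, with the most of the cluster, thus had the least bta-miR-486, and its r with the log2 sum of the cluster was -0.976. The defining bta-miR-451 went the same way on only 24 reads in all, at 1.95, 0.652 and 0.557 normalised CPM at 37 °C and 2.65, 1.09 and 0.639 at 42 °C, with r of -0.838, and bta-miR-144 was at 0 in 3 libraries, after the lysis of red blood cells that the study's methods describe. The part of these cells in the pattern by replicate number was not tested.

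The leukocyte list, with all 4 matched miRNAs tested, summed to 700.2 to 842.7 normalised CPM at 37 °C and 613.9 to 749.2 at 42 °C, and its members did not share a pattern. bta-miR-142-5p was highest in the libraries numbered 3, at 428.5 and 425.1 normalised CPM, and lowest in those numbered 1, at 263.2 and 247.9, whereas bta-miR-150 was highest in those numbered 1, at 260.7 and 161.6, against 82.7 and 57.7 in those numbered 3. The r with the log2 sum of the cluster was 0.84 for bta-miR-142-5p, 0.772 for bta-miR-142-3p, -0.195 for bta-miR-223 and -0.59 for bta-miR-150. The mesenchymal list, for theca and stroma, summed to 1327 to 2090 normalised CPM at 37 °C and 2012 to 2201 at 42 °C, with 6 of 6 tested. The members of this list differed in direction too, with r with the log2 sum of the cluster from -0.903 for bta-miR-145 to 0.847 for bta-miR-199b, and 0.312 and 0.304 for bta-miR-199a-3p and bta-miR-199a-5p. bta-miR-145, a smooth muscle miRNA, was at 18.1, 8.91 and 4.74 normalised CPM at 37 °C and 11.9, 8.16 and 5.11 at 42 °C, and bta-miR-199b at 3.42, 6.30 and 11.7 and at 4.31, 8.97 and 10.2. The epithelial list summed to 62 to 96.9 normalised CPM at 37 °C and 51.9 to 88.9 at 42 °C, with 4 of 6 tested. The list for sensory and neural cells, where the cluster is also high, summed to 1235 to 1952 in control and 1619 to 1958 in HS cells, nearly all of it bta-miR-204, while the defining bta-miR-124a was at 0 in all 6 libraries, which allows up to 0.639 to 1.46 normalised CPM, the level of 3 reads in the deepest and the shallowest library. The miRNAs abundant in cultured granulosa cells, bta-miR-21, bta-miR-132 and bta-miR-212, summed to 145442 to 205202 normalised CPM at 37 °C and 166441 to 201759 at 42 °C, nearly all of it bta-miR-21-5p. The r with the log2 sum of the cluster was positive for all 4 matched miRNAs of this list, lowest for bta-miR-21-5p (0.67) and highest for bta-miR-212 (0.772), and was 0.552 for bta-miR-202. In the epithelial list it ran from -0.776 for bta-miR-200c to 0.564 for bta-miR-141, which had 18 reads in all. These r describe 6 libraries and carry no p. No tested miRNA of these lists passed the test for heat stress or that for replicate number. The median log2 fold changes were -0.18 for the leukocyte, 0.23 for the mesenchymal, -0.08 for the epithelial, 0.17 for the sensory and neural and 0.08 for the granulosa list. The part of other cell types in the levels of the cluster was not tested.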

How the data were processed

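Small RNA of cultured bovine granulosa cells was sequenced in 3 control and 3 HS libraries made with unique molecular identifiers. Per the labels and the study's methods, the authors trimmed reads with cutadapt 1.11, collapsed them by identifier, mapped them with Bowtie2 2.2.2 to assembly UMD3.1, assigned them to miRBase and scaled the libraries with TMM factors (edgeR), which assume that most miRNAs do not differ. The deposited signal is TMM-normalised CPM. It came out as whole multiples of 1 step per library for 100% of values (tolerance 0.01), which gave whole reads, the depth and the filter (filterByExpr). 3 reads equal 0.639 to 1.46 normalised CPM. The intervals of levels and ratios cover counting error only, whereas those of log2 fold changes come from the spread between libraries. How reads shared by similar miRNAs were assigned is not given in the sources used here.

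The main test was limma 3.58.1 with trend (R 4.3.3) on log2(value + 1), which understates changes of low miRNAs, adjusted by Benjamini-Hochberg over 365 miRNAs. edgeR 4.0.16 and DESeq2 1.42.0 on the recovered reads, other scalings, filters and pseudocounts, a block for replicate number and leaving out each library were alternatives. The edgeR quasi-likelihood test called 10 miRNAs for heat stress at the thresholds where limma called 11. Ratios were compared by exact permutation (scipy 1.17.1, Python 3.11.15). Variation is given as shares of the sum of squares of log2(value + 1).

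Named miRNAs are the members, their neighbours in the annotation and by mean level, the 3 with the highest r to each member, bta-miR-361 and up to 3 members of each list with the largest fold change. Others, bta-miR-1271 among them, were chosen after values were seen. The members and lists were chosen with earlier results of these data known. bta-miR-486, bta-miR-223 and bta-miR-9 stand in more than 1 list. Mature sequences, and so the seed comparison by sequence, were not used here. The vesicle libraries of the study were not analysed here.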

Additional observations from a re-analysis of the deposited data

How the results depend on the processing

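The members had no call in any of the 20 alternatives, with adjusted p from 0.325 to 0.99 for bta-miR-183, 0.657 to 0.994 for bta-miR-96 and 0.361 to 0.99 for bta-miR-182. With every library in the fit, bta-miR-183 and bta-miR-182 kept their direction in all 14 alternatives. Among these, the other filters, the fit without the trend and the limma block cannot move the log2 fold change. With each library left out in turn, the log2 fold change ran from -1.08 to 0.36 for bta-miR-183, from -0.99 to 0.60 for bta-miR-96 and from -1.06 to 0.41 for bta-miR-182, in fits that leave a replicate number in 1 group only, and that of the summed level from -1.07 to 0.40. Scaled to bta-miR-361, bta-miR-96 had 0.038, where this scaling moved the median of all miRNAs to 0.17. Upper quartile scaling moved that median to -0.18. The number of miRNAs past the threshold for heat stress was 18 instead of 11 with scaling to bta-miR-361, 8 to 16 with a library left out, and within 1.5 times of 11 otherwise. The number that differed by replicate number was 16 with upper quartile factors and 4 with scaling to bta-miR-361, without the trend and with a pseudocount of 5. The cause of these changes was not tested. The group differences of the 3 ratios kept their direction in all 8 alternatives each, of which the sign-flip test repeats the main difference and cannot turn it.

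A replicate block in limma left the log2 fold changes at -0.38, -0.14 and -0.33 and gave SEs of 0.144, 0.257 and 0.141 for bta-miR-183, bta-miR-96 and bta-miR-182 and adjusted p of 0.325, 0.865 and 0.361, so that the block changed no call of a member (unadjusted p 0.0489, 0.607 and 0.0695). The 95% intervals were then -0.75 to -0.0026, -0.81 to 0.53 and -0.69 to 0.038. It called 10 miRNAs for heat stress instead of 11, and 12 in edgeR. The pairing is not established: the deviations of libraries with the same number correlated at 0.42, -0.12 and 0.62 for numbers 1, 2 and 3. Sign-flip tests of the ratios within numbers gave p of 0.25, 0.5 and 0.5 (exact, smallest possible 0.25). The depth limited bta-miR-96 most, with 24 reads in control replicate 1.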

Other observations

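The opposite of the cluster's pattern, a level at least 4 times as high in replicate 1 as in replicate 3 in both groups, was found for 3 tested miRNAs, which were chosen after their values were seen and carry no test of this limit. bta-miR-1246 measured 11464, 3503 and 1977 normalised CPM at 37 °C and 9938, 2754 and 1431 at 42 °C for the libraries numbered 1, 2 and 3. bta-miR-2411-3p had 823.1, 45 and 54.9 normalised CPM at 37 °C and 517, 155 and 88.8 at 42 °C. bta-miR-2332 had 552.2, 88 and 64.9 normalised CPM at 37 °C and 421.4, 177.6 and 102.6 at 42 °C. Among the miRNAs that differed by replicate number in limma, bta-miR-122, the most abundant miRNA of liver, also ran against the cluster, with 71.8, 54.3 and 17.3 normalised CPM at 37 °C and 72, 49.5 and 20.4 at 42 °C (adjusted p for replicate number 0.0476). bta-miR-2285t was low in replicate 1 as the cluster was, with 5.37, 24.5 and 22.8 normalised CPM at 37 °C and 5.97, 28.8 and 40 at 42 °C (limma adjusted p for replicate number 0.0476).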
